A study of Arabidopsis thaliana with 35 samples.

Results

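Whether loss of *PRR7* and *PRR9* alters the response of *Arabidopsis* seedlings to cold was measured gene by gene at ZT6, which is 6 h after lights on. For each gene the change from 22 °C to 10 °C in Col-0 (wild type, WT) was subtracted from the change in the *prr7prr9* double mutant, which carries the *prr7-3* and *prr9-1* alleles. The value is a difference of 2 log2 fold changes (LFC) and is called the interaction here; a positive value means that 10 °C moved the gene further upward, or less far downward, in *prr7prr9* than in Col-0. The rule that chose the samples used their labels and no measured value. It took 8 of the 35 samples of the series, namely 2 each of *prr7prr9* at 10 °C, *prr7prr9* at 22 °C, Col-0 at 10 °C and Col-0 at 22 °C. Whole seedlings, 12 d old and raised at 22 °C in days of 12 h light, spent the last 1 h before collection at 10 °C or stayed at 22 °C. The spread between libraries was estimated together with the 4 libraries of both genotypes at 37 °C. Of 37898 genes in the deposited table, 31135 were tested, which are those above the lowest value of the table in at least 2 of the 12 libraries.

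The plant circadian clock is a set of transcriptional feedback loops. The Myb factors CCA1 and LHY accumulate around dawn and repress genes that peak in the evening, through a promoter sequence called the evening element. The PSEUDO-RESPONSE REGULATORS PRR9, PRR7 and PRR5 follow through the day and repress *CCA1*, *LHY* and other morning genes, while REVEILLE 8 (RVE8) and the LNK proteins activate evening genes. Cold acts on this system as well as on the *CBF* factors, which switch on *COR* genes, and the clock sets the time of day at which cold has its strongest effect on many of them.

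The deposited values are log2 CPM (read counts scaled to library size) with 5 counts added to each gene, so that an LFC understates the change of a gene with few counts. *PRR7* stood at 1.73 and 2.27 log2 CPM in *prr7prr9* at 10 °C and at 2.78 and 1.96 in *prr7prr9* at 22 °C, against 6.52 and 6.88 in Col-0 at 10 °C and 6.98 and 7.20 in Col-0 at 22 °C. All *prr7prr9* libraries thus lay below all Col-0 libraries, and the *PRR7* interaction was 0.02 ± 0.38 (SE). *PRR9* did not separate the genotypes at 22 °C, with 3.25 and 2.60 log2 CPM in *prr7prr9* against 2.98 and 2.73 in Col-0. The authors' quantile normalization brought the libraries to a common scale, so the depth of a library cannot be read from the table. The values of the table ran from -1.68 to 14.73 log2 CPM. The libraries differed in how many genes lay above the lowest value. That number was 27329 to 29244 in 4 libraries (*prr7prr9* 10 °C replicate 2, *prr7prr9* 22 °C replicate 3, *prr7prr9* 37 °C replicate 3 and Col-0 37 °C replicate 2) and 24403 to 26018 in the other 8. All 10 leaf markers and all 12 root markers of the fixed lists were above the lowest value in the 8 libraries compared. The summed leaf markers ranged over 41640 to 52239 CPM in *prr7prr9* at 10 °C and 31837 to 33341 CPM in *prr7prr9* at 22 °C, against 39708 to 39949 CPM in Col-0 at 10 °C and 26179 to 37102 CPM in Col-0 at 22 °C. The summed root markers ranged over 221 to 253, 195 to 252, 196 to 270 and 211 to 301 CPM in the same 4 groups, and the groups overlapped. No gene of either list was called for the interaction, and the median interactions were 0.02 (leaf) and -0.17 (root). In whole seedlings, fewer cells of a type and less RNA per cell cannot be told apart.

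The interaction was called for 26 genes (limma with a trend, Benjamini-Hochberg adjusted p below 0.05 over all genes tested), which is 0.0835% of the 31135. It was negative for 17 (0.0546%) and positive for 9 (0.0289%). Among the 17 were the morning clock genes *CCA1*, *RVE8*, *RVE1*, *LNK3* and *PRR9* and the B-box genes *COL2*, *BBX18*, *BBX25*, *BBX28* and *BBX29*. Among the 9 were *COR27*, the related *AT4G33980*, *AT1G07050* and the B-box genes *BBX7* and *BBX8*. The called values ran from -3.65 to -1.44 and from 1.51 to 6.25, with SEs between 0.17 and 0.48, whereas the median SE over all genes tested was 0.37. An unadjusted p below 0.05 was found for 2233 genes, and the gene next in rank was *SIGE* (interaction -1.60, adjusted p = 0.053), named after its value was seen. The study's methods name 2 replicates of each group at ZT6 and use the term biological replicates for the earlier time point. Whether the 2 were grown separately is not stated, so the p-values measure the spread between these libraries, which may in part be technical. With both *prr7prr9* libraries that had more genes above the lowest value left out, no gene was called by limma (lowest adjusted p = 0.11), although 1681 genes had an unadjusted p below 0.05 and the interactions of the 26 genes kept their sign and came to between 0.78 and 1.14 of their size. Leaving out single libraries gave 6 calls without *prr7prr9* 10 °C replicate 1 and 6 without replicate 2, 8 without *prr7prr9* 22 °C replicate 3 and 11 without replicate 2, 10 without Col-0 22 °C replicate 3, 11 without Col-0 10 °C replicate 2 and 12 without replicate 1, 15 without *prr7prr9* 37 °C replicate 2, and 14 and 17 without Col-0 37 °C replicate 3 and replicate 2. *AT5G15950*, *BBX18*, *AT1G07050*, *CCA1* and *LNK3* were called in all 12 fits that lacked 1 library. Other clock and B-box genes were called in fewer of the 12. *COR27*, *PRR9*, *COL2*, *BBX25* and *BBX7* were called in 10, 8, 7, 6 and 5 of them. *AT4G33980* and *RVE8* were called in 4 each, *RVE1* in 3, *BBX8* and *BBX29* in 2 each and *BBX28* in 1.

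**Figure D1:**
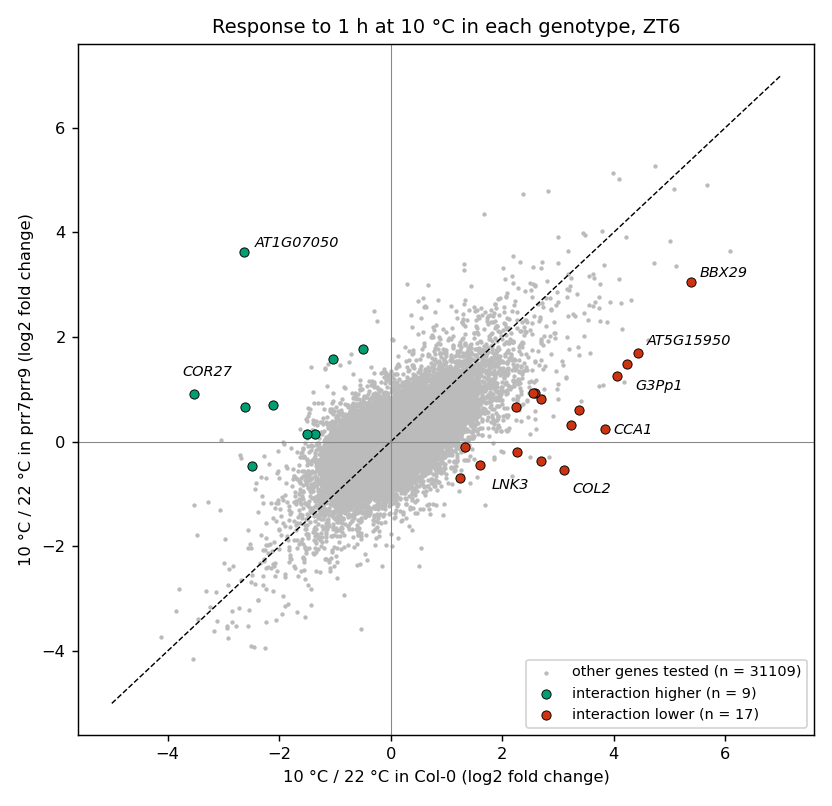
LFC between 10 °C and 22 °C in *prr7prr9* (vertical axis) against that in Col-0 (horizontal axis) for each of the 31135 genes tested at ZT6; the dashed line marks equal responses, red points are the 17 genes with a negative and green points the 9 genes with a positive called interaction. The red genes lie below the line and all right of 0 on the horizontal axis, and 8 of the 9 green genes have responses of opposite sign in the genotypes.

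The 2 directions corresponded to 2 patterns. Each of the 17 genes with a negative interaction rose at 10 °C in Col-0 (adjusted p below 0.05 and absolute LFC over 1), whereas 4 of them rose in *prr7prr9*. For all 17 the change in *prr7prr9* was smaller in size than in Col-0, and for 6 of them (*LNK3*, *JAC1*, *COL2*, *ATH13*, *RVE1* and *AT2G41250*) the fitted LFC was negative in *prr7prr9* and positive in Col-0. None of these 6 negative LFCs passed the test in *prr7prr9*. Of the 9 genes with a positive interaction, 8 fell at 10 °C in Col-0 and none fell in *prr7prr9*, where 3 rose. *AT1G07050* and *BBX8* passed the test in both genotypes, upward in *prr7prr9* and downward in Col-0. Across all genes tested, 3.6% were called for the response to 10 °C in *prr7prr9* (2.19% rose, 1.42% fell) and 5.94% in Col-0 (3.94% rose, 2% fell). These are 1122 and 1848 genes. The *prr7prr9* count came to 368 and 413 without *prr7prr9* 10 °C replicate 1 and replicate 2, to 551 and 578 without *prr7prr9* 22 °C replicate 3 and replicate 2, and to 693 with a replicate block by column number. The Col-0 count came to 1136 without Col-0 10 °C replicate 1. With both *prr7prr9* libraries that had more genes above the lowest value left out, the counts were 72 in *prr7prr9* and 1326 in Col-0. These responses are parts of the interaction itself and are given as a description of it.

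The same interaction is also the genotype difference at 10 °C minus that at 22 °C. At 22 °C, 16 of the 17 genes with a negative interaction were higher in *prr7prr9* than in Col-0 and 7 of the 9 with a positive interaction were lower, by the same thresholds. At 10 °C, 5 of the 26 differed between the genotypes: *AT5G15950*, *COR27*, *emb2746* and *CHL* were higher in *prr7prr9* and *PRR9* was lower. The size of the fitted difference was smaller at 10 °C than at 22 °C for 22 of the 26, and 18 lay within an LFC of 1 at 10 °C. The 4 genes whose difference was larger at 10 °C were *PRR9*, *COR27*, *emb2746* and *CHL*. The study cautions that genes peak later in *prr7prr9* under light and dark cycles. A difference from WT seen at a single time of day could, by its account, come from that delay and not from a changed response to temperature. With ZT6 alone the delay and a changed response cannot be told apart, and this was not tested. Over all genes tested, 0.141% differed between the genotypes at 10 °C (0.0674% higher and 0.0739% lower in *prr7prr9*) and 0.286% at 22 °C (0.215% higher and 0.0707% lower). These are 44 and 89 genes. The order of the 2 counts turned round with at least 1 log2 CPM required in 2 libraries (175 and 144) and with values under 1 log2 CPM set to 1 (207 and 125). Leaving out single libraries moved the 10 °C count to between 4 (without Col-0 10 °C replicate 2) and 41, with 7 and 14 without *prr7prr9* 10 °C replicate 2 and replicate 1, 18 without *prr7prr9* 37 °C replicate 2 or either Col-0 37 °C library, 20 without *prr7prr9* 37 °C replicate 3 or Col-0 10 °C replicate 1, and 29 and 26 without *prr7prr9* 22 °C replicate 3 and replicate 2. It moved the 22 °C count to 51 and 45 without *prr7prr9* 22 °C replicate 3 and replicate 2 and to 57 without Col-0 22 °C replicate 3.

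**Figure D2:**
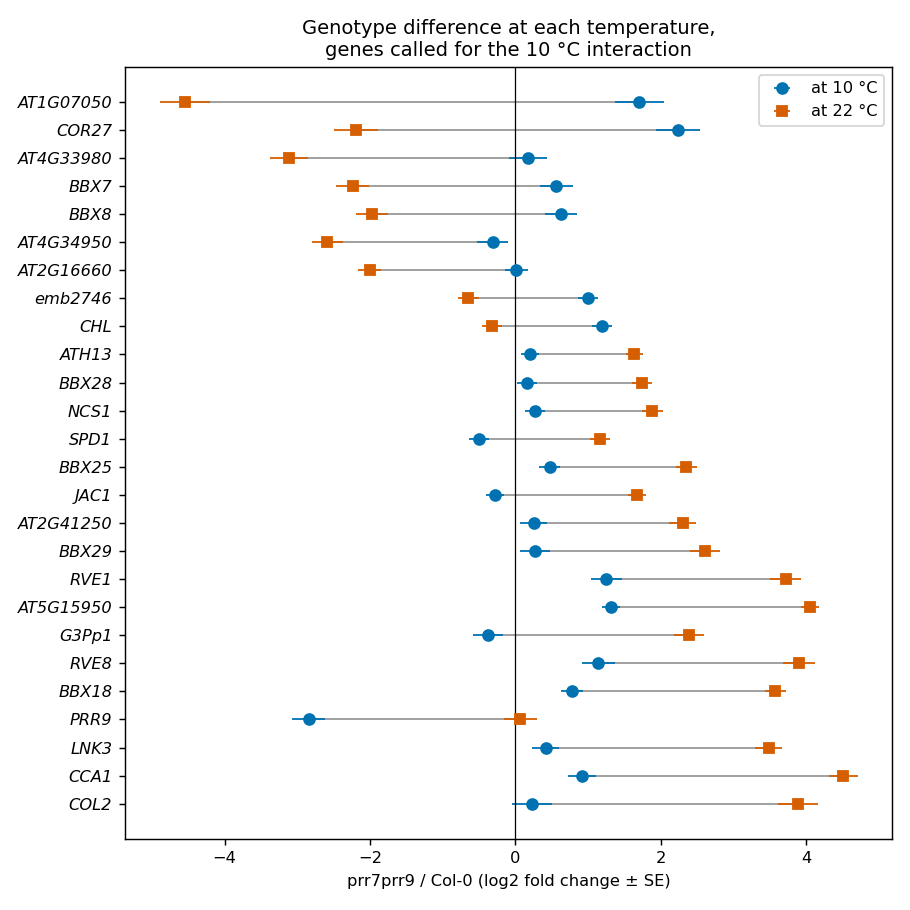
LFC of *prr7prr9* over Col-0 (horizontal axis, ± SE of the fit) at 10 °C (blue circles) and at 22 °C (orange squares) for the 26 genes called for the interaction, ordered by the interaction. At 22 °C the differences spread from -4.55 for *AT1G07050* to 4.51 for *CCA1*, and at 10 °C 18 of the 26 lie between -1 and 1.

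*CCA1*, *RVE8*, *RVE1* and *LHY*, which encode morning Myb factors, were higher in *prr7prr9* than in Col-0 at 22 °C. At 10 °C their differences did not pass the test (LFC 0.92, 1.14, 1.25 and 2.68, limma adjusted p = 0.16, 0.11, 0.078 and 0.071). *CCA1* stood at 7.78 and 7.98 log2 CPM in *prr7prr9* at 10 °C and at 7.50 and 7.75 in *prr7prr9* at 22 °C, against 6.97 and 6.95 in Col-0 at 10 °C and 3.41 and 2.83 in Col-0 at 22 °C. Only the Col-0 libraries at 22 °C were low, and the *prr7prr9* libraries were high at both temperatures. The LFC between 10 °C and 22 °C was 0.25 ± 0.20 (SE) in *prr7prr9*, where it did not pass the test, and 3.84 ± 0.20 in Col-0, which gave an interaction of -3.59 ± 0.28 (limma adjusted p = 0.0023). *RVE8*, which activates evening genes, had 5.53 and 5.87 log2 CPM in *prr7prr9* at 10 °C and 4.95 and 5.22 at 22 °C, against 4.44 and 4.67 in Col-0 at 10 °C and 1.50 and 0.87 at 22 °C (interaction -2.76 ± 0.32, limma adjusted p = 0.019). *RVE1*, a relative of *CCA1* that connects the clock to auxin, had 5.19 and 5.28 log2 CPM in *prr7prr9* at 10 °C and 5.40 and 5.46 at 22 °C, against 3.83 and 4.13 in Col-0 at 10 °C and 2.07 and 1.35 at 22 °C (interaction -2.47 ± 0.30). In both *RVE* genes the groups did not overlap between the genotypes at either temperature. *LHY*, the partner of *CCA1*, followed the same order without being called. Its level was 7.62 and 7.76 log2 CPM in *prr7prr9* at 10 °C and 7.18 and 7.23 at 22 °C, against 4.64 and 5.37 in Col-0 at 10 °C and 2.91 and 1.30 at 22 °C. The 2 Col-0 libraries at 22 °C lay far apart, and the interaction was -2.42 with a 95% interval from -3.81 to -1.03 (limma adjusted p = 0.36).

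**Figure D3:**
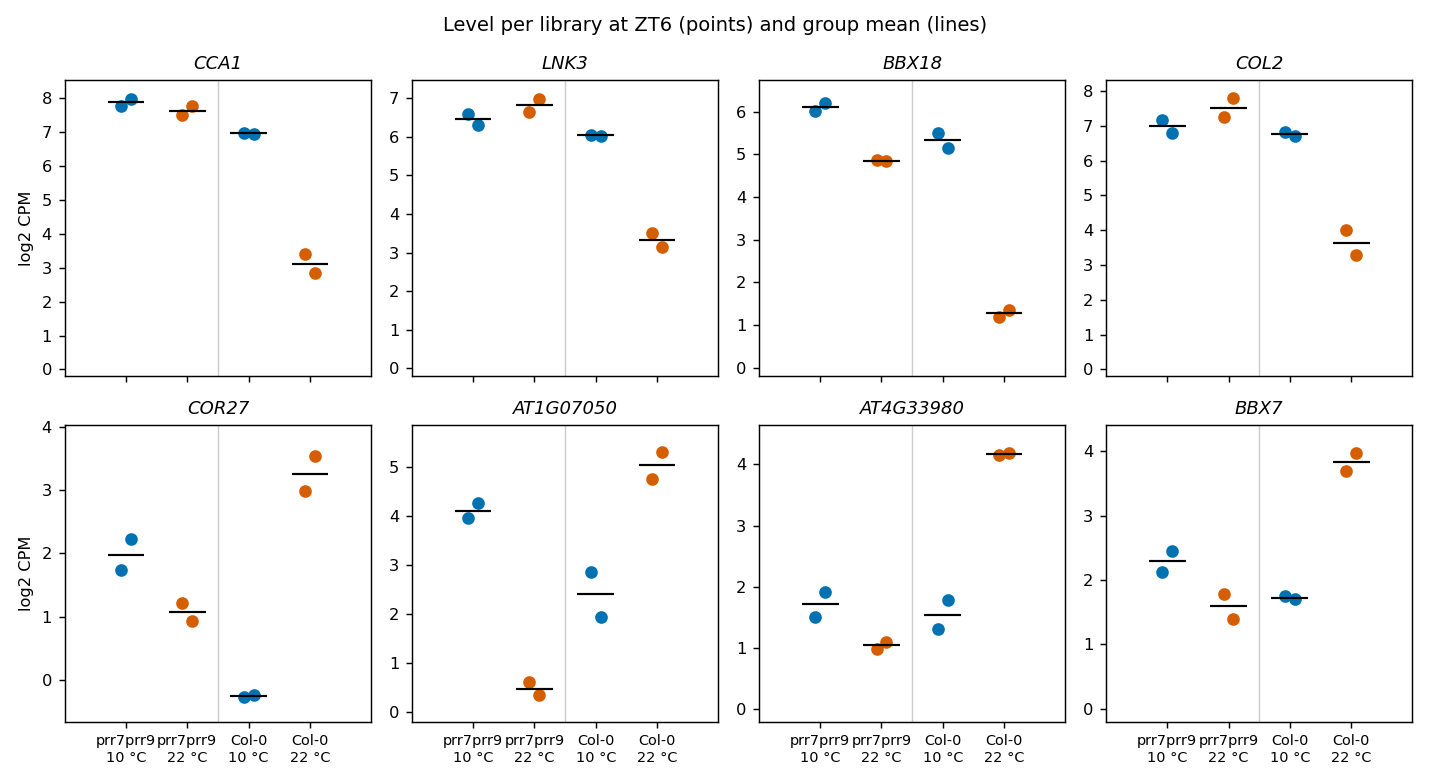
Level in log2 CPM (vertical axes) of 8 genes with a called interaction in the 2 libraries of each group (points) and the group mean (lines), with *prr7prr9* left and Col-0 right in each panel. In the upper row (*CCA1*, *LNK3*, *BBX18*, *COL2*) Col-0 at 22 °C is below the other groups; in the lower row (*COR27*, *AT1G07050*, *AT4G33980*, *BBX7*) it is above *prr7prr9* at 22 °C and both genotypes at 10 °C.

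*LNK3*, a member of the family of clock coactivators that bind RVE proteins, had 6.59 and 6.30 log2 CPM in *prr7prr9* at 10 °C and 6.63 and 6.98 at 22 °C, against 6.04 and 6.01 in Col-0 at 10 °C and 3.50 and 3.15 at 22 °C. Its interaction was -3.07 ± 0.26 (limma adjusted p = 0.0035). *PRR9*, which is itself mutated in *prr7prr9*, had 3.28 and 3.21 log2 CPM in *prr7prr9* at 10 °C and 3.25 and 2.60 at 22 °C, against 5.87 and 6.31 in Col-0 at 10 °C and 2.98 and 2.73 at 22 °C. Here the Col-0 libraries at 10 °C stood alone, and the interaction of -2.91 ± 0.32 described a rise that was seen in Col-0 and not in *prr7prr9*. Reads of *PRR9* may in part have been assigned to *AT2G46670*, whose closest match in the annotation is *PRR9*, but this was not tested. Of the 16 genes in the list of morning clock genes, all were tested, 5 were called with a negative and none with a positive interaction, and 14 had a negative value. The median interaction of the list was -1.70, beside 0.00 over all genes tested, and the range was -3.59 to 0.04.

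The B-box genes encode zinc finger proteins that act in light signalling, flowering and the clock, and 7 of the 26 called genes belonged to them. *COL2*, a relative of *CONSTANS*, had the most negative interaction of all genes tested, -3.65 ± 0.39 (limma adjusted p = 0.015). It stood at 7.18 and 6.80 log2 CPM in *prr7prr9* at 10 °C and 7.25 and 7.80 at 22 °C, against 6.81 and 6.71 in Col-0 at 10 °C and 4.00 and 3.29 at 22 °C. *BBX18* had 6.00 and 6.19 log2 CPM in *prr7prr9* at 10 °C and 4.86 and 4.84 at 22 °C, against 5.50 and 5.15 in Col-0 at 10 °C and 1.19 and 1.35 at 22 °C. It rose in both genotypes, by 1.25 ± 0.15 in *prr7prr9* and 4.05 ± 0.15 in Col-0. *BBX29* also rose in both, by 3.06 ± 0.21 in *prr7prr9* and 5.39 ± 0.21 in Col-0, and reached 6.59 and 6.67 log2 CPM in *prr7prr9* at 10 °C against 6.63 and 6.09 in Col-0 at 10 °C. The *BBX29* levels of the genotypes thus overlapped at 10 °C and were separate at 22 °C, with 3.75 and 3.40 log2 CPM in *prr7prr9* and 1.10 and 0.84 in Col-0. *BBX25* and *BBX28* had interactions of -1.88 ± 0.21 and -1.58 ± 0.19.

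*BBX7* and *BBX8*, which are known to act in freezing tolerance, went the other way. *BBX7* had 2.13 and 2.46 log2 CPM in *prr7prr9* at 10 °C and 1.79 and 1.40 at 22 °C, against 1.75 and 1.71 in Col-0 at 10 °C and 3.70 and 3.98 at 22 °C (interaction 2.80 ± 0.31, limma adjusted p = 0.015). *BBX8* had 3.74 and 4.11 log2 CPM in *prr7prr9* at 10 °C and 2.68 and 2.04 at 22 °C, against 3.23 and 3.36 in Col-0 at 10 °C and 4.40 and 4.26 at 22 °C (interaction 2.61 ± 0.31, limma adjusted p = 0.021). *BBX8* rose by 1.57 ± 0.22 in *prr7prr9* and fell by 1.04 ± 0.22 in Col-0. Of the 22 B-box genes listed, 5 were called with a negative and 2 with a positive interaction, which is 31.8% of them, and 16 had a negative value. The list's median was -1.12. *BBX17* was among the genes chosen for a large fall at 10 °C. It fell by 3.72 ± 0.21 in *prr7prr9* and 4.11 ± 0.21 in Col-0, and its interaction of 0.39 ± 0.30 was not called.

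Genes in the list of evening clock genes had mostly positive interactions. *COR27*, a cold-regulated gene whose protein represses clock genes, had 1.73 and 2.22 log2 CPM in *prr7prr9* at 10 °C and 1.21 and 0.93 at 22 °C, against -0.28 and -0.25 in Col-0 at 10 °C and 2.99 and 3.54 at 22 °C. The order of the genotypes was thus reversed between the temperatures, with *prr7prr9* higher by 2.24 ± 0.30 at 10 °C and lower by an LFC of -2.20 ± 0.30 at 22 °C, and the interaction was 4.44 ± 0.43 (limma adjusted p = 0.0085). *AT4G33980*, whose closest match in the file's annotation is *COR27*, had 1.52 and 1.92 log2 CPM in *prr7prr9* at 10 °C and 0.99 and 1.11 at 22 °C, against 1.31 and 1.78 in Col-0 at 10 °C and 4.15 and 4.18 at 22 °C (interaction 3.29 ± 0.37). *AT1G07050*, which encodes a protein with a CCT motif and is not in that list, had the largest interaction of all genes tested, 6.25 ± 0.48 (limma adjusted p = 0.0023). Its level was 3.94 and 4.25 log2 CPM in *prr7prr9* at 10 °C and 0.61 and 0.34 at 22 °C, against 2.85 and 1.94 in Col-0 at 10 °C and 4.75 and 5.29 at 22 °C. In *prr7prr9* it rose by 3.62 ± 0.34 and in Col-0 it fell by 2.63 ± 0.34.

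Of the 14 genes in the list of evening clock genes, 2 were called (*COR27* and *AT4G33980*, both positive), 12 had a positive interaction and the median was 1.58, with a range from -0.52 to 4.44. *FKF1*, a blue-light receptor of the flowering pathway, had an interaction of 2.80 ± 0.42 (limma adjusted p = 0.070). It rose by 2.50 ± 0.30 in *prr7prr9*, whereas its LFC in Col-0 was -0.30 ± 0.30. *LUX*, a subunit of the evening complex, and *TOC1*, the evening repressor of *CCA1*, had interactions of 1.24 ± 0.20 and 1.47 ± 0.41, with limma adjusted p = 0.089 and 0.41. *LUX* and *TOC1* fell in Col-0, and their LFCs in *prr7prr9* were 0.21 ± 0.14 and 0.17 ± 0.29. In Col-0 7 of the 14 evening genes fell and none rose at 10 °C, while in *prr7prr9* 1 fell and 2 rose.

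*AT5G15950*, annotated as an adenosylmethionine decarboxylase and thus as a gene of polyamine synthesis, had the lowest p of all genes tested (interaction -2.74 ± 0.18, limma adjusted p = 0.0023). It stood at 7.63 and 7.78 log2 CPM in *prr7prr9* at 10 °C and 5.98 and 6.03 at 22 °C, against 6.32 and 6.46 in Col-0 at 10 °C and 1.94 and 1.97 at 22 °C. It rose in both genotypes, by 1.70 ± 0.13 in *prr7prr9* and 4.43 ± 0.13 in Col-0, and stayed higher in *prr7prr9* at 10 °C. It was the single member called among the 12 genes listed for polyamine synthesis, whose median interaction was -0.19. *G3Pp1*, a glycerol-3-phosphate permease, had 6.67 and 6.98 log2 CPM in *prr7prr9* at 10 °C and 5.59 and 5.10 at 22 °C, against 7.01 and 7.38 in Col-0 at 10 °C and 3.12 and 2.80 at 22 °C (interaction -2.76 ± 0.29). *JAC1*, which is needed for chloroplasts to gather in weak blue light, had 4.81 and 4.99 log2 CPM in *prr7prr9* at 10 °C and 5.52 and 5.67 at 22 °C, against 5.21 and 5.14 in Col-0 at 10 °C and 3.85 and 4.00 at 22 °C (interaction -1.95 ± 0.18). Its level in *prr7prr9* was thus highest at 22 °C and in Col-0 highest at 10 °C.

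Further negative interactions between -2.05 and -1.44 were called for *SPD1*, which acts in plastid development of the seedling, *NCS1*, a nucleobase transporter of the plastid, *ATH13*, an ABC1-family protein of the chloroplast, and *AT2G41250*, a hydrolase of the HAD family. Positive ones between 1.51 and 2.27 were called for *emb2746*, the chloroplast RNase J, for *CHL*, the chloroplast lipocalin, and for *AT2G16660* and *AT4G34950*, which belong to the major facilitator superfamily of transporters. *emb2746* and *CHL* fell by 1.50 ± 0.14 and 1.36 ± 0.14 in Col-0 at 10 °C. Their LFCs in *prr7prr9* were 0.14 ± 0.14 and 0.15 ± 0.14. *ATH13*, *emb2746* and *AT4G34950* were not called in any fit that lacked 1 of the 12 libraries.

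*CBF1*, *CBF2* and *CBF3* rose at 10 °C in both genotypes, and none of the 11 genes in the list of *CBF* genes and their upstream regulators was called for the interaction. *CBF3* had 7.76 and 7.63 log2 CPM in *prr7prr9* at 10 °C and 3.35 and 2.24 at 22 °C, against 7.73 and 6.97 in Col-0 at 10 °C and 1.50 and 1.85 at 22 °C. The genotypes overlapped at 10 °C, and the interaction was -0.77 with a 95% interval from -1.91 to 0.36. *CBF2* had 6.82 and 6.81 log2 CPM in *prr7prr9* at 10 °C and 4.12 and 2.79 at 22 °C, against 6.34 and 6.57 in Col-0 at 10 °C and 1.63 and 1.04 at 22 °C. Its interaction of -1.76 had a 95% interval from -3.0 to -0.52 before adjustment and did not pass (limma adjusted p = 0.50). The *CBF1* interaction was 0.41, with an interval from -0.92 to 1.73. Each of these intervals includes differences of more than 1 on the log2 scale. Of the 11 genes 10 had a negative value, and the median was -0.26.

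**Figure D4:**
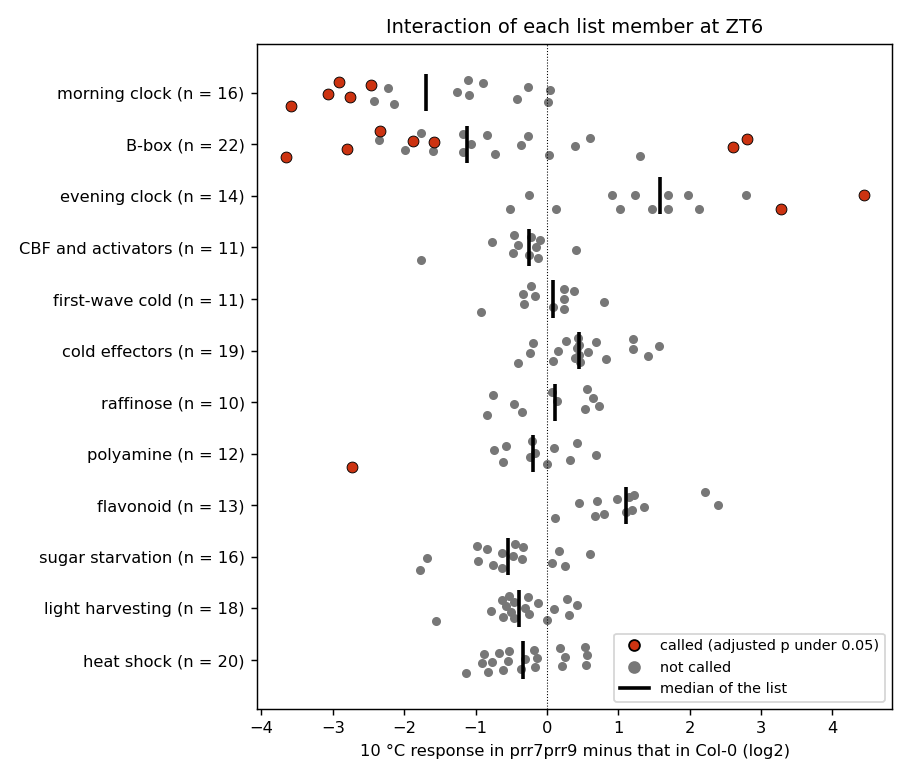
Interaction (horizontal axis, log2 scale) of every tested member of 12 gene lists; red points are called genes, grey points are not, and the black bar is the median of the list. The medians of the morning clock (-1.70) and evening clock (1.58) lists lie on opposite sides of 0, and the called members stand in the morning clock, B-box, evening clock and polyamine lists.

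None of the 11 genes of the first cold wave and none of the 19 cold effector genes was called, and the medians were 0.09 and 0.45. *ZAT12*, a zinc finger factor of the first wave, rose by 2.32 ± 0.22 in *prr7prr9* and 1.52 ± 0.22 in Col-0. *COR47*, a dehydrin, rose by 1.24 ± 0.28 in *prr7prr9* and had an LFC of 0.03 ± 0.28 in Col-0, but its interaction of 1.21 ± 0.40 was not called (limma adjusted p = 0.52). *GOLS3*, a galactinol synthase that supplies raffinose synthesis, had 4.16 and 4.29 log2 CPM in *prr7prr9* at 10 °C and 1.80 and 0.77 at 22 °C, against 1.16 and 1.68 in Col-0 at 10 °C and -0.87 and -0.87 at 22 °C. At each temperature both *prr7prr9* values lay above both Col-0 values, and it rose at 10 °C in both genotypes, by 2.94 ± 0.37 in *prr7prr9* and 2.29 ± 0.37 in Col-0. The interaction was 0.65, with an interval from -0.53 to 1.83. With values under 1 log2 CPM set to 1, which raises 3 of the 4 libraries at 22 °C, it came to 2.41 and was called (limma adjusted p = 0.018).

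The flavonoid genes had interactions of 1 sign without any call. All 13 listed genes, from *CHS* to the Myb factors of the pathway, had positive values between 0.12 and 2.40, with a median of 1.12, while 15391 of the 31135 genes tested had a positive value. The list's median LFC was 2.19 in *prr7prr9* and 0.89 in Col-0, and 6 and 5 of the 13 genes rose. *UF3GT*, a glycosyltransferase of the pathway, had the largest value, 2.40 ± 0.64 (limma adjusted p = 0.38). Over 22 other settings of the fit its value ranged from 0.65 to 3.17. The early light-inducible genes *ELIP1* and *ELIP2* rose in both genotypes, by 4.80 ± 0.51 and 4.35 ± 0.37 in *prr7prr9* and by 2.82 ± 0.51 and 1.67 ± 0.37 in Col-0, and their interactions of 1.98 ± 0.72 and 2.68 ± 0.53 were not called. *CDF6*, a Dof factor of the flowering pathway, rose by 2.1 ± 0.42 in *prr7prr9* and had an LFC of 0.58 ± 0.42 in Col-0 (interaction 1.51 ± 0.60, limma adjusted p = 0.63). No gene was called in the lists for sugar starvation (median -0.55), light harvesting (-0.39), heat shock (-0.34), abscisic acid (-0.03) or jasmonate (0.51).

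Genes chosen only by their mean response to 10 °C over both genotypes were set beside the interaction. In this balanced layout the 2 contrasts are orthogonal, but both use the same estimate of the spread, so their calls are not independent. A gene that responds in Col-0 alone has both a mean response and an interaction. By that mean response 5.82% of all genes tested were called, 3.98% upward and 1.85% downward. Of the 1238 genes that rose on average, 14 had a called negative and none a called positive interaction. This is 1.13%, beside 0.0835% of all genes tested, and 825 of the 1238 had a negative value (median -0.25). Of the 575 genes that fell on average, 2 were called, both positive, which is 0.348%, and the median was -0.06. Examples among the largest average responses are *CBF3* and *AT4G34550*, which rose by 5.27 ± 0.43 in *prr7prr9* and 4.74 ± 0.43 in Col-0, and *AT3G15450*, which fell by 4.16 ± 0.43 in *prr7prr9* and 3.55 ± 0.43 in Col-0.

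The study compiled published lists of genes bound by PRR7 and PRR9 in chromatin immunoprecipitation (ChIP-seq). Of 105 tested PRR7 targets 9 were called, and of 123 tested PRR9 targets 10, or 8.57% and 8.13% of them, all with a negative interaction, beside 0.0546% of all genes tested. The 9 PRR7 targets include *PRR9*, which is itself mutated in *prr7prr9*. Among the 32 tested genes on both lists, 7 were called: *AT5G15950*, *CCA1*, *LNK3*, *BBX25*, *BBX28*, *RVE1* and *BBX29*. In that list 27 of 32 values were negative and the median was -1.03, beside medians of -0.42 for all PRR7 targets and -0.51 for all PRR9 targets. None of the 9 genes with a positive interaction was on either list. The median LFC of the genes on both lists was 0.74 in *prr7prr9* and 2.23 in Col-0.

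The promoters of 25 of the 26 called genes were searched for 4 short sequences on both strands, in a window from 250 bases before to 50 bases after the RefSeq gene start (TAIR10.1). The evening element (AAATATCT), bound by CCA1, LHY and RVE8, was in the windows of 3 of the 8 genes searched that had a positive interaction (*BBX8*, *AT4G33980* and *CHL*) and 2 of the 17 with a negative one, against 5.34% of all 31063 windows. The G-box (CACGTG), a site of bZIP and bHLH factors, was in 7 of the 17 windows of genes with a negative interaction (*PRR9*, *CCA1*, *RVE8*, *SPD1*, *LNK3*, *RVE1* and *ATH13*) and in 0 of the 8 others, against 7.2% of all windows. The CCA1 binding site (AAAAATCT) was in 1 of 17 and 1 of 8 windows, against 7.38%, and the core of the CBF site (CCGAC) in 4 of 17 and 0 of 8, against 15.2%. Genes chosen by their mean response to cold were searched in the same way. The evening element was in 14.1% of 573 windows of genes that fell on average and 7.43% of 1238 that rose. The G-box was in 7.68% of the windows of genes that fell and 11.7% of those that rose. Whether the called genes differ from these cold-responsive genes was not tested. A match is a description of these letters and not a binding site. No searched sequence contains another of them. The 250 bases before the start are shown for *BBX8*, which held the most evening elements among the windows of the called genes searched, for *SPD1*, which held the most G-boxes, and for the clock genes *CCA1* and *LNK3*, with evening elements in capitals in *BBX8* and G-boxes in capitals in the others; AGATATTT is the evening element on the opposite strand.
BBX8, chr5:19563833-19564082, minus strand: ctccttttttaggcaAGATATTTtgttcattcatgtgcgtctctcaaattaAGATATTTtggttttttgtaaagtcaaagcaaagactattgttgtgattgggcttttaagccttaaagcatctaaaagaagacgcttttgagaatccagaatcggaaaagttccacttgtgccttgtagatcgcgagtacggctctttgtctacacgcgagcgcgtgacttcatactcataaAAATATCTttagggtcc
CCA1, chr2:19245341-19245590, plus strand: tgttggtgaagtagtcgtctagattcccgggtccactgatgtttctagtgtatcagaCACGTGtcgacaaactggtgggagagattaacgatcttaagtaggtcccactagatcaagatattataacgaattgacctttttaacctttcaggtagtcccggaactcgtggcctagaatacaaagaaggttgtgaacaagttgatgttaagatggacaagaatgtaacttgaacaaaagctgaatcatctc
LNK3, chr3:3923265-3923514, plus strand: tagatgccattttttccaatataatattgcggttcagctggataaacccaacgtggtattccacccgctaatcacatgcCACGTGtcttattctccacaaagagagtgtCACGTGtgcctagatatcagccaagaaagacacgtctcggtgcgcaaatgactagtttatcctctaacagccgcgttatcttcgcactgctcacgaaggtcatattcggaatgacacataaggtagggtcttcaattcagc
SPD1, chr3:3238746-3238995, plus strand: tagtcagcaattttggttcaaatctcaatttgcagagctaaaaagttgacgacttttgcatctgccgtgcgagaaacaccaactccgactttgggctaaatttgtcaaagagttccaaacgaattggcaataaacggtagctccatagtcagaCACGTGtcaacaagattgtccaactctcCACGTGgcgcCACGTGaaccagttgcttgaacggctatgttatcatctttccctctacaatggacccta

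Counted with the first base of the gene as 0, the *BBX8* promoter held evening elements that began at -235, -199 and -17. *SPD1* held G-boxes at -97, -69 and -59 and *LNK3* at -171 and -141, while *CCA1* had its G-box at -193. *COL2*, which had a negative interaction, also held an evening element, at -188. Some matches began after the gene start. They were the evening elements of *AT4G33980* at 32, *CHL* at 1 and *PRR9* at 26, and the G-box of *RVE8* at 11.

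The same comparison with 37 °C in place of 10 °C called 1 gene, *BBX18* (interaction -2.39 ± 0.21, limma adjusted p = 0.027), which is 0.00321% of the genes tested, and 1082 genes had an unadjusted p below 0.05. No gene was called with no trend, with a replicate block by column number, from the groups compared alone, or without any single one of *prr7prr9* 37 °C replicate 3, the *prr7prr9* libraries at 22 °C and 10 °C, both Col-0 libraries at 37 °C and Col-0 22 °C replicate 3, whereas 51 genes were called without *prr7prr9* 37 °C replicate 2. The heat interaction shares the 22 °C libraries with the cold interaction, so the values of both are given side by side without a measure of likeness. For *AT1G07050* they were 6.25 at 10 °C and 3.72 at 37 °C, for *COR27* 4.44 and 3.52, for *CCA1* -3.59 and -2.10, for *COL2* -3.65 and -0.76 and for *BBX29* -2.34 and -0.62. All 26 cold interactions were larger in size than the heat interaction of the same gene, but the 26 were chosen on the cold interaction. The difference between the cold and the heat interaction was called for no gene by limma (62 genes without *prr7prr9* 37 °C replicate 2), while 1556 genes, 23 of the 26 among them, had an unadjusted p below 0.05. This difference shares the 10 °C libraries on which the 26 were chosen, so the 23 are no separate test of them. For the heat interaction, which shares the 22 °C libraries, 23 of the 26 also had an unadjusted p below 0.05.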

How the data were processed

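RNA was sequenced from whole seedlings at ZT6. Per the labels and the study's methods, the authors trimmed reads with cutadapt, used TopHat2 (2.0.14) on Bowtie2 (2.2.5) for alignment to TAIR10, counted reads in Araport11 exons, added 5 counts, scaled with edgeR and normalized by quantiles with voom; the deposited log2 CPM values of 12 libraries were used. The authors' columns of fold changes, adjusted p-values and group means were not used. Replicate numbers are those of the table's columns (1 and 2 at 10 °C, 2 and 3 at 22 °C and 37 °C), which at 22 °C and 37 °C do not match the numbers of the labels, so those columns were taken as libraries of their group only.

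Group means of the 6 ZT6 groups were fitted with limma 3.58.1 (R 4.3.3, empirical Bayes with a trend, 6 residual degrees of freedom), and p-values were adjusted over 31135 genes. Interactions were called at an adjusted p below 0.05, other comparisons also needed an absolute LFC over 1. The fitting was tested on simulated data. SEs are those of the fit, and 95% intervals are not adjusted for the number of genes. Strand-specific counting is not given in the sources used here, so overlapping genes on opposite strands cannot be told apart. Of 37898 identifiers, 37751 matched RefSeq (TAIR10.1), whose names, positions and promoters were used; 1 promoter is not reported here.

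Members and lists were chosen with earlier results of these data known. Named were *PRR7* and *PRR9*, all genes called for the interaction, up to 4 genes of each list with the lowest interaction p, 12 genes fixed by name and the largest average cold responses; other names are said to have been chosen later.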

Additional observations from a re-analysis of the deposited data

Results flagged for a closer look

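The response to 10 °C differed between *prr7prr9* and Col-0 for 26 genes by the test of the difference itself, and the response to 37 °C differed for 1 gene, *BBX18*. The 2 counts do not show that the interactions differ between cold and heat. That difference was called for no gene in the main fit and for 62 without *prr7prr9* 37 °C replicate 2. The count at 37 °C was 0 with no trend, with a replicate block, from the groups compared alone and without 8 of the 12 single libraries, and 51 without *prr7prr9* 37 °C replicate 2. With 2 libraries in each group no single library could be tested as lying apart from its group.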

How the results depend on the processing

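For the 10 °C interaction (26 genes), 16 genes were called with no trend, 27 with a robust prior, 26 with libraries centred on their median, 26 with an absolute LFC over 1 as well, 9 from the 8 libraries at 10 °C and 22 °C alone, 91 with no filter on low values, 63 with at least 1 log2 CPM in 2 libraries and 99 with values under 1 log2 CPM set to 1. Of the 26 genes 25, 26 and 26 were among the calls in the last 3 settings. Without *prr7prr9* 10 °C replicate 2 and *prr7prr9* 22 °C replicate 3 together it was 0, and 0 also without all 4 libraries with more genes above the lowest value, a setting added after seeing the data (1248 genes at an unadjusted p below 0.05). Leaving out single libraries gave 6 to 24. The interactions of the 26 genes, which were chosen from these same libraries, kept their sign in all 22 settings. Many of these settings cannot change the fitted interaction of a gene and alter only its SE or p. They are the changes of the prior and the filters, the block, the groups compared and the fits without a 37 °C library. Of the 572 adjusted p-values of the 26 genes, 267 were no longer below 0.05.

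For the response to 10 °C in *prr7prr9* (1122 genes), 707 were called with no filter and 72 without both *prr7prr9* libraries with more genes, and 368 to 1170 without single libraries. For Col-0 (1848) it was 2848 with no fold threshold and 1136 to 1903 without single libraries, and for the average response (1813) 4731 with no fold threshold and 1478 to 1983. For *prr7prr9* against Col-0 at 10 °C (44), 25 were called with no trend, 26 with no filter, 175 with at least 1 log2 CPM, 207 with values set to 1, 21 from the groups compared, 6 without both libraries and 4 to 41 without single libraries. At 22 °C (89) it was 144 with at least 1 log2 CPM, 125 with values set to 1, 37 without both libraries and 45 to 83 without single libraries. Without all 4 libraries these 5 comparisons had 0 calls (1111 to 5339 genes at an unadjusted p below 0.05); 4 groups then hold 1 library each, which is assumed to vary like the others.

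The heat interaction (1) had 0 calls with no trend, from the groups compared, without both and without all 4 libraries, 22 with no filter, 4 with at least 1 log2 CPM, 4 with values set to 1, and 0 to 51 without single libraries. Of these, 51 came without *prr7prr9* 37 °C replicate 2. The cold minus heat interaction (0) had 19, 1 and 27 calls with no filter, with at least 1 log2 CPM and with values set to 1, and 0 to 62 without single libraries, 62 without the same library. The cause of these changes was not tested.

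Whether libraries with the same column number share anything beyond that number is not stated. Their deviations from the group means correlated between the genotypes at 0.41 (10 °C), 0.34 (22 °C) and -0.27 (37 °C) over 12885 genes. With a replicate block by column number, 13 interactions were called, 12 of them among the 26; the other counts were 693 for *prr7prr9*, 17 for the genotypes at 10 °C and 0 for the heat interaction.

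The near-zero *PRR7* interaction changed sign to -0.66 without both and without all 4 libraries and ranged from -0.39 to 0.43 without single libraries; those of *AT4G34550* ranged from -0.12 (without Col-0 22 °C replicate 3) to 1.18 and those of *AT3G15450* from -1.28 to 0.072 (without Col-0 10 °C replicate 2). Outside the 26, 7 named genes (*GOLS3*, *LHY*, *FKF1*, *LUX*, *ELIP2*, *PAP2* and *TPS8*) were called in at least 1 setting.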
